A study of Mus musculus with 2 samples.

Results

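The let-7 genes are a family of microRNA genes whose mature products share 1 seed, the bases 2 to 8 that pair with target messages. They were taken as the 10 genes named Mirlet7a-1, Mirlet7a-2, Mirlet7b, Mirlet7c-1, Mirlet7c-2, Mirlet7d, Mirlet7f-2, Mirlet7g, Mirlet7i and Mir98, out of 1973 microRNA genes in the deposited count tables. Small RNA with inserts under 30 nt came from whole lung of embryos of strain B6NCrl, described as healthy, at 15.5 days. No treatment or altered allele is recorded, and the 2 libraries form 1 group. Replicate 1 was made from lungs of 78 embryos and replicate 2 from lungs of 62, sexes mixed in each, and both carry 1 donor identifier. The labels call the libraries biological replicates, and nothing in the labels separates litters. The spread between the libraries covers differences between the pooled embryos, pooling and library preparation, which cannot be told apart. With 1 group, levels can be described and genes compared within a library, and no condition can be compared with another.

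let-7 was found in Caenorhabditis elegans as a regulator of developmental timing. In mammals its mature products accumulate as tissues differentiate and repress messages such as Lin28a, Hmga2 and Myc. LIN28 proteins in turn bind the loop of let-7 precursors and block their maturation, so that family members can be transcribed without yielding mature microRNA. Several let-7 genes sit beside genes of the miR-99, miR-100 and miR-125 families in transcripts that carry both.

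The mature sequences show how closely the members resemble each other, which bears on what could be counted for each. All 10 genes were matched by symbol in the RefSeq table of GRCm38.p6, the assembly that mm10 denotes. Every 5p product is 22 nt long. The capitals mark the seed, GAGGUAG, which is identical in all of them. The 5p product of Mirlet7a-2 was read from its hairpin, and Mirlet7e, whose gene is not among the 10, is shown for its locus, described further on.
let-7g-5p: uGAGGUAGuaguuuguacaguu
let-7i-5p: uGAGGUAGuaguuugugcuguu
let-7d-5p: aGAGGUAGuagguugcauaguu
miR-98-5p: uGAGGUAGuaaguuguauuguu
let-7b-5p: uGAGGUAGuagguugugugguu
let-7f-5p: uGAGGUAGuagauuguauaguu
let-7a-5p: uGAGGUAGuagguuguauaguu
let-7c-5p: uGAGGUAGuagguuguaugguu
let-7e-5p: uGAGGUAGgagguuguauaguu

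Counted from 1 at the 5′ end of let-7a, let-7c differs by A19G, let-7f by G12A and let-7e by U9G. let-7b differs from let-7a by A17G and A19G, let-7d by U1A and U16C, let-7g by G12U and U18C, and miR-98 by G11A and A19U. let-7i lies farthest from let-7a, with G12U, A17G, U18C and A19U. let-7g and let-7i differ from each other by 2 bases, and the most distant pair, let-7d and let-7i, by 6. Among 1005 RefSeq hairpins, the 5p sequences of let-7b, let-7d, let-7g, let-7i and miR-98 were each found in 1. The let-7a sequence was found in Mirlet7a-1 and Mirlet7a-2, the let-7c sequence in Mirlet7c-1 and Mirlet7c-2, and the let-7f sequence in Mirlet7f-1 and Mirlet7f-2. The hairpins of these copies diverge just behind the mature product. The following lines give the 5p product with the next 3 bases in capitals.
Mirlet7a-1: ugagguaguagguuguauaguuUUA
Mirlet7a-2: ugagguaguagguuguauaguuUAG
Mirlet7c-1: ugagguaguagguuguaugguuUAG
Mirlet7c-2: ugagguaguagguuguaugguuUUG
Mirlet7f-1: ugagguaguagauuguauaguuGUG
Mirlet7f-2: ugagguaguagauuguauaguuUUA

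A read that starts at base 1 of let-7f is found in a single hairpin once it is 23 nt long. For the let-7a and let-7c genes it takes 24 nt, since both copies go on with the same base. The 3p products, shown next, repeat less. The products of Mirlet7a-1 and Mirlet7c-2 are identical, while those of Mirlet7a-2, Mirlet7c-1 and Mirlet7f-2 were each found in 1 hairpin.
Mirlet7a-1 and Mirlet7c-2, 3p: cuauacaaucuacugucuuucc
Mirlet7a-2, 3p: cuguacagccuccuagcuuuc
Mirlet7c-1, 3p: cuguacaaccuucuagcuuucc
Mirlet7f-2, 3p: cuauacagucuacugucuuuc

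Replicate 1 held 5354530 counts on the annotated strands of microRNA genes and replicate 2 held 6489390. A count of 0 allowed up to 0.560 CPM (counts per 1000000 gene counts) in replicate 1 and 0.462 CPM in replicate 2, the value of 3 counts. Reads mapped to several places, 3588198 and 4144809, have a summary line to themselves and were treated as counted for none of the genes. Intervals and floors cover counting error only, since reads without molecular identifiers are not independent molecules. The lung label was set against microRNA markers of its tissues. Mir126a of endothelium took 6.89% and 6.70% of the counts, and the 5 miR-200 genes of epithelium, all detected, 3.19% and 3.15%. Mir143 and Mir145a of smooth muscle together took 7.76% and 8.31%. Nearly all of that was Mir143 (76627 and 81960 CPM), as Mir145a had 998 and 1126 CPM. Mir122 of liver took 0.0470% and 0.0278%, Mir451a and Mir144 of erythroid cells 0.0684% and 0.0833%, and Mir223 of leukocytes 0.0685% and 0.0648% in replicates 1 and 2. Of striated muscle, Mir208a had 573 and 255 CPM and Mir208b 269 and 780 CPM, so that the libraries differed in opposite directions. Mir1a-1, both Mir133a copies and the 3 neuronal Mir124a copies had 0 counts, which says nothing of the level of their products, because each is encoded by more than 1 gene.

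The family held 912845 counts in replicate 1 and 1131694 in replicate 2. These were 17.05% of all counts (95% exact binomial interval 17.02 to 17.08) in replicate 1 and 17.44% (17.41 to 17.47) in replicate 2. Of all reads, whether a gene took them or not, they were 8.18% ± 0.256 (SD, n = 2), as gene counts made up 46.9% of reads in replicate 1 and 48.0% in replicate 2. Reads mapped to several places are in no gene's counts, so both shares leave out any let-7 reads among them. All 10 genes reached at least 10 counts in both libraries, as did 18.1% of the 1973 genes. A mean of at least 1000 CPM was reached by 6 of the 10, beside 4.82% of all genes. The median over the 10 genes was 5074 CPM, beside 123 CPM over the 357 detected genes. In whole tissue, fewer cells of a type and less RNA per cell cannot be told apart in such values.

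**Figure D1:**
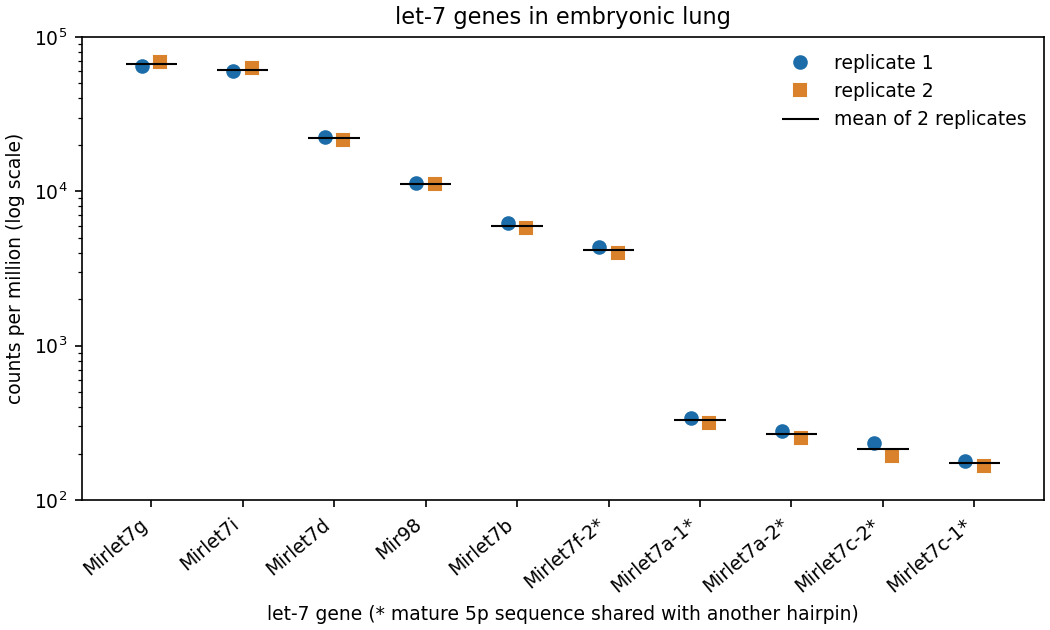
CPM of the 10 let-7 genes (log scale), 1 circle for replicate 1 and 1 square for replicate 2, with the mean as a line. Mirlet7g stands highest at a mean of 66802 CPM and Mirlet7c-1 lowest at 174 CPM, and 4 genes whose mature 5p sequence is shared with another hairpin lie at means of 174 to 328 CPM.

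The most abundant member by counted reads was Mirlet7g, on chromosome 9 at 106178840 to 106178927 (plus strand), inside an intron of Wdr82, which encodes a subunit of a histone methyltransferase complex. It had 64732 CPM in replicate 1 and 68872 CPM in replicate 2. Mirlet7i, on chromosome 10 at 122985640 to 122985724 (minus strand), within an exon of the processed pseudogene D630033A02Rik, had 60362 and 62348 CPM. The libraries did not overlap between these neighbours in rank, and Mirlet7g exceeded Mirlet7i by 1.07-fold in replicate 1 and 1.10-fold in replicate 2. Together the pair held 73.4% of the family's counts in replicate 1 and 75.2% in replicate 2. Mirlet7g overlapped in range with Mir126a (68906 and 67001 CPM), the gene next above it outside the family.

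Mirlet7d, on chromosome 13 at 48536012 to 48536114 (minus strand), lies in an exon of the long noncoding gene 6720427I07Rik. It had 22507 and 21427 CPM in replicates 1 and 2, and Mirlet7i exceeded it by 2.68-fold and 2.91-fold. Mir98, the member that was not named let-7, lies on the X chromosome at 151913214 to 151913321 (plus strand) in an intron of Huwe1, a ubiquitin ligase gene. It had 11272 and 11086 CPM, a coefficient of variation of 1.18% that was the smallest of the 10. Mirlet7b, on chromosome 15 at 85707319 to 85707403 (plus strand), lies in an exon of the long noncoding gene Lncppara, upstream of Ppara. It had 6185 and 5766 CPM. These 5 single-hairpin genes, Mirlet7g and Mirlet7i included, made up 96.8% and 97.2% of the family's counts.

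Mirlet7f-2, 785 bp before Mir98 and also intronic in Huwe1 (X chromosome, 151912346 to 151912428), had 4386 CPM in replicate 1 and 3960 CPM in replicate 2. It was the highest of the genes with a shared 5p sequence. Mirlet7a-1 (chromosome 13, 48538179 to 48538272, minus strand, in an exon of 6720427I07Rik like Mirlet7d) stood 12.9-fold and 12.5-fold below it, at 340 and 316 CPM. Mirlet7a-2 (chromosome 9, 41536716 to 41536811, plus strand, in introns of the noncoding genes 3110039I08Rik and Gm49317) had 282 and 254 CPM. Mirlet7c-2 (chromosome 15, 85706603 to 85706697, plus strand, in an exon of Lncppara) had 234 and 194 CPM, with the widest spread of the family, a coefficient of variation of 13.0%. Mirlet7c-1 (chromosome 16, 77599657 to 77599750, plus strand), in an intron of Mir99ahg, was lowest at 180 and 167 CPM, from 962 and 1086 counts. Mirlet7g exceeded it by 360-fold in replicate 1 and 412-fold in replicate 2.

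The order of the 10 genes was the same in both libraries, and the ranges of the 2 libraries were apart in all 45 pairs of members, beside 96.4% of pairs among all detected genes. The closest neighbours were Mirlet7g and Mirlet7i, with a mean log2 ratio of 0.12 ± 0.03 (SD, n = 2). Next came Mirlet7a-1 over Mirlet7a-2, with 0.29 ± 0.03, and Mirlet7c-2 over Mirlet7c-1, with 0.30 ± 0.12 (SD, n = 2). An exact two-sided permutation test of 2 values against 2 cannot go below p = 0.333, and one that exchanges the genes within each library cannot go below 0.5, so none of these differences could pass a threshold of 0.05. A bias that both libraries share, such as ligation preference for a sequence, would not show in their spread.

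**Figure D2:**
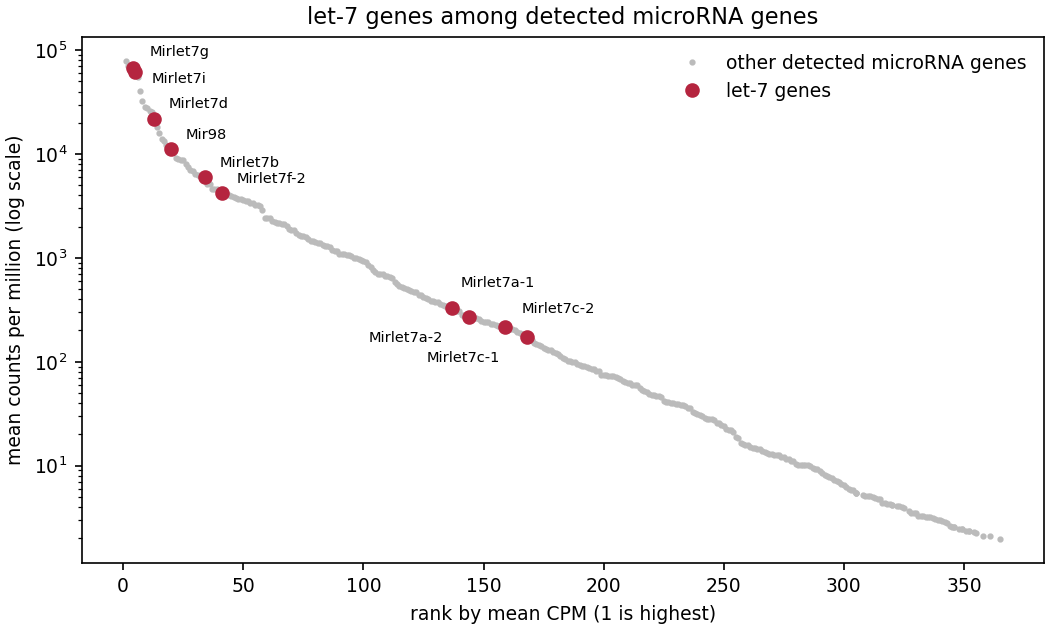
Mean CPM (log scale) of the 357 detected microRNA genes against their rank, with the let-7 genes in red. Members fall at ranks 4, 5, 13, 20, 34 and 41, and then at 137, 144, 159 and 168.

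Set against the genes outside the family next to them in level, Mirlet7i and Mirlet7d stood apart on both sides, and the other members did not. Mirlet7i lay above Mir335 (54398 and 56046 CPM), a gene in an intron of the imprinted Mest. Mirlet7d lay below Mir130a (23231 and 27408 CPM) and above Mir99b. Mirlet7g lay above Mir335 as well but overlapped Mir126a. Mir98 overlapped Mir30a (12418 and 10483 CPM) above it and Mir200c (11124 and 10809 CPM) below it. Mirlet7b overlapped Mir487b (6382 and 5886 CPM) and stood above Mir214 (5129 and 5186 CPM). The 5 genes with a shared 5p sequence each overlapped the gene on either side, such as Mir423 (4947 and 4134 CPM) and Mir182 (4062 and 4151 CPM) around Mirlet7f-2.

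Within the family's own counts, Mirlet7g held 38.7% ± 1.08, Mirlet7i 35.6% ± 0.244, Mirlet7d 12.7% ± 0.647 and Mir98 6.48% ± 0.180 (SD, n = 2 each). Mirlet7b held 3.47% ± 0.227 and Mirlet7f-2 2.42% ± 0.213, and each of the 4 remaining genes held between 0.101% and 0.190% (SD, n = 2 each). Only Mirlet7g and Mirlet7i held a larger part of the family in replicate 2 than in replicate 1 among the 10 genes. These parts leave out reads mapped to several places, so they describe counted reads and not the make-up of the family's products.

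Genes whose 5p sequence was found in 1 hairpin all stood above those with a shared sequence. The 5 single-hairpin genes took 16.5% and 17.0% of all counts in replicates 1 and 2, and the 5 genes with a shared 5p sequence took 0.542% and 0.489%. The log2 ratio was 4.93 in replicate 1 and 5.11 in replicate 2, a mean of 5.02 ± 0.13 (SD, n = 2) or 32.5-fold. The exact two-sided permutation test of 2 values against 2 gave p = 0.333, the smallest possible. Since both sets were measured in the same 2 libraries, the exact test that exchanges them within each library was added after seeing the data, and it gave p = 0.5, again the smallest possible. The lowest single-hairpin gene, Mirlet7b at 5976 ± 296 CPM, exceeded the highest gene with a shared sequence, Mirlet7f-2 at 4173 ± 301 CPM (SD, n = 2 each). Without Mirlet7f-2, an alternative chosen after seeing the data, the log2 ratio was 7.41. Reads mapped to several places were 124 times the summed counts of the 5 shared-sequence genes in replicate 1 and 131 times in replicate 2. How many of those reads carry let-7 sequence was not tested. The levels of Mirlet7f-2 and of both copies of let-7a and let-7c, and each order that involves them, are therefore uncertain. The family's share of all counts and each member's part of the family, single-hairpin genes included, are uncertain for the same reason. The table does not separate the 5p from the 3p product, and which of them supplied these counts was not tested.

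Members that lie together on 1 strand had unequal counts. In the run on chromosome 13, Mirlet7d exceeded Mirlet7a-1 by 66.1-fold in replicate 1 and 67.8-fold in replicate 2. On chromosome 15, Mirlet7b exceeded Mirlet7c-2, 621 bp away, by 26.5-fold and 29.7-fold. Within Huwe1 the gap was smaller, as Mir98 exceeded Mirlet7f-2 by 2.57-fold and 2.80-fold. In each of these runs the lower gene is one with a shared 5p sequence.

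Mirlet7a-2 and Mirlet7c-1 lie in runs with miR-99, miR-100 and miR-125 genes, whose products have other seeds. Mirlet7a-2 stood 14.7-fold below Mir100 in replicate 1 (4160 CPM for Mir100) and 13.5-fold below it in replicate 2 (3441 CPM). It was close to Mir125b-1, which had 222 and 226 CPM, at 1.27-fold and 1.13-fold above it. Mirlet7c-1 stood farthest from a neighbour, 244-fold and 227-fold below Mir99a (43797 and 37949 CPM), which lies 656 bp before it. It was also below Mir125b-2, at 301 and 324 CPM, by 1.67-fold and 1.93-fold. Mir125b-1 and Mir125b-2 encode the same mature product, so their counts too are uncertain.

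**Figure D3:**
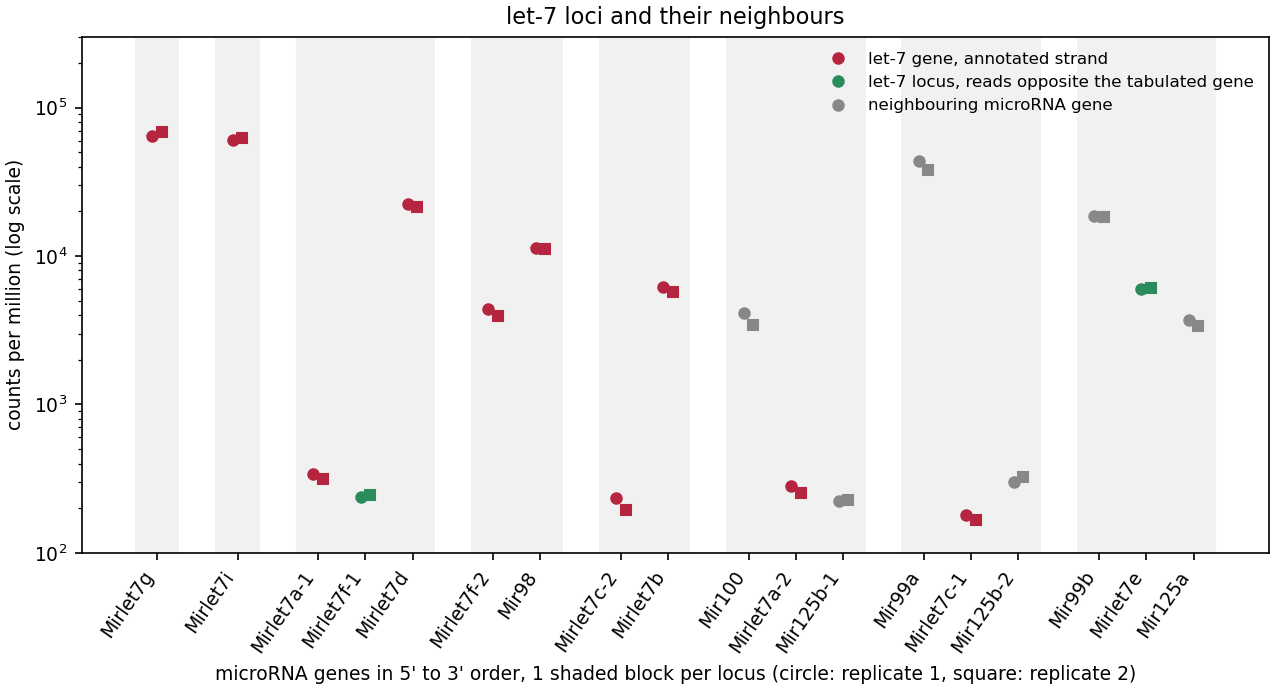
CPM (log scale) of let-7 genes and their neighbours in transcription order, 1 shaded block per locus, with a circle for replicate 1 and a square for replicate 2. Reads opposite the tabulated gene at the Mirlet7e locus (green) lie at 5988 and 6062 CPM, between Mir99b and Mir125a.

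Mirlet7e and Mirlet7f-1 have no row of their own in the tables, but reads on their strand were counted there in the column for the opposite strand of another gene. At Mirlet7e (chromosome 17, 17830352 to 17830444, plus strand, in an intron of Spaca6) the tabulated gene is Gm25927, which covers it on the minus strand. Gm25927 had 0 counts on its own strand in both libraries and 32065 and 39337 reads on the strand of Mirlet7e. Scaled like the other genes, these were 5988 CPM in replicate 1 and 6062 CPM in replicate 2, within the range of Mirlet7b. They stood 3.09-fold and 3.01-fold below Mir99b (18531 and 18244 CPM) and 1.62-fold and 1.79-fold above Mir125a (3690 and 3394 CPM), the neighbours on both sides.

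At Mirlet7f-1 (chromosome 13, 48537829 to 48537917, minus strand), between Mirlet7d and Mirlet7a-1, the tabulated gene is Gm24111 on the plus strand. It had 11 and 5 counts on its own strand and 1276 and 1598 reads on the strand of Mirlet7f-1, or 238 and 246 CPM. Mirlet7f-2, which encodes the identical 5p product, exceeded this by 18.4-fold in replicate 1 and 16.1-fold in replicate 2. With both loci added, chosen after seeing the data, the family's share was 17.9% ± 0.282 (SD, n = 2). Within the 10 members, reads on the opposite strand were present for 2, beside 10.4% of detected genes. They were 29 and 14 reads for Mirlet7b and 7 and 2 for Mir98.

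Outside these genes, the RefSeq table holds 2 mature products with the let-7 seed, of Mir1961 and Mir7k, and 13 of its 1738 mature entries carry the seed in all. Mir1961 had 0 counts in both libraries and Mir7k had 1 and 2, so that neither reached 10 counts. Of the microRNAs known to act on the Lin28a message, Mir125a was counted at 3690 and 3394 CPM. Among the others, Mir9-2 had 0 counts, Mir9-3 had 9 and 18, and Mir9-1 was not analysed here. The Mir9 copies encode the same mature products, so these counts say nothing of the level of miR-9. Of this list of 6 genes, 3 of the 5 in the table reached 10 counts in both libraries, namely Mir125a, Mir125b-1 and Mir125b-2, beside 18.1% of all genes.

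The loops of the Mirlet7 hairpins differ in the motif GGAG, which LIN28 proteins are known to bind. They are shown to compare genes with and without it, from the base after the 5p product to the base before the 3p product, with the motif in capitals.
Mirlet7g: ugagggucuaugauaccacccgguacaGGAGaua
Mirlet7i: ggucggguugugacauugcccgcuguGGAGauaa
Mirlet7d: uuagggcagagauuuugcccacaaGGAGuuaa
Mirlet7b: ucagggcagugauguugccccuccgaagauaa
Mirlet7c-2: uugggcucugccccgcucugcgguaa

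GGAG, searched on the hairpin's own strand, was found between the arms in 7 of the 9 Mirlet7 genes of the family and not in Mirlet7b and Mirlet7c-2. Of 644 hairpins with 2 mature arms in the RefSeq table, whose loops vary in length, 8.07% hold it there. The 2 without these letters had means of 5976 CPM (Mirlet7b) and 214 CPM (Mirlet7c-2), and the 7 with them ran from 174 to 66802 CPM. In both sets, every gene below Mirlet7b is one with a shared 5p sequence, whose level is uncertain. Of the single-hairpin Mirlet7 genes, Mirlet7b lacks the motif. Mirlet7d, Mirlet7i and Mirlet7g hold it, at means of 21967, 61355 and 66802 CPM. Whether level goes with the motif was not tested. The loops of these 9 genes were 23 to 34 nt long, shortest in Mirlet7a-2 and Mirlet7c-1 and longest in Mirlet7g and Mirlet7i. LIN28 was not measured in these libraries.

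The 2 libraries were close for the family. Its summed level was 1.02-fold higher in replicate 2 (95% exact binomial interval 1.02 to 1.03). Mirlet7g was 1.06-fold higher in replicate 2 and Mirlet7i 1.03-fold, and the 8 other members were lower there, beside 49% of detected genes. The ratios of those 8, replicate 2 over replicate 1, ran from 0.832 for Mirlet7c-2 to 0.984 for Mir98. For 9 of the 10 members the interval left out 1, beside 44.8% of detected genes. The exception was Mirlet7c-1, at 0.931 (0.853 to 1.02). The interval narrows as counts rise, and the median level was 5074 CPM over members and 123 CPM over detected genes. The 2 shares are therefore not alike in what they could detect. A difference of 1.2-fold or more, a limit chosen after seeing the data, was seen in 1 of the 10, beside 26.9% of detected genes. That member, Mirlet7c-2, only just passed the limit, at 1.202-fold. The median member differed by 1.07-fold and the median detected gene by 1.10-fold. A chi-square test of the counts put the differences between the libraries well above sampling noise, at 63.8 per degree of freedom over detected genes and 122 over the members, so they were not counted as 1 library deposited in duplicate. Nothing else is read from this test.

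**Figure D4:**
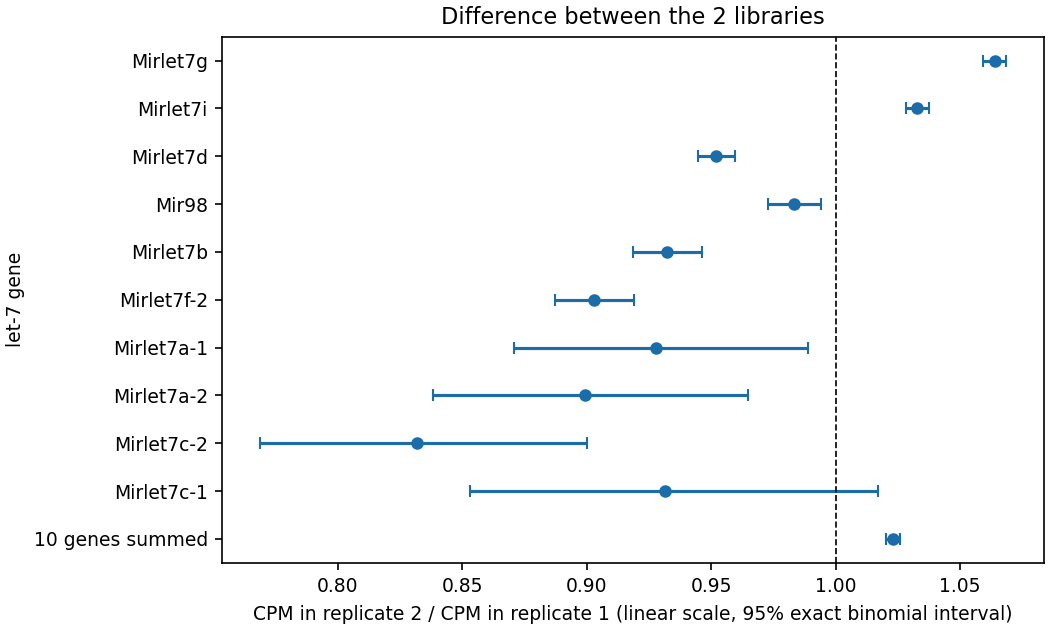
CPM in replicate 2 divided by CPM in replicate 1 for each let-7 gene and for their sum, with 95% exact binomial intervals on a linear axis and a dashed line at 1. Mirlet7g and Mirlet7i lie above 1, the 8 others lie below it, and the interval of Mirlet7c-1 crosses it.

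Likeness to the summed family was measured by the difference in this log2 ratio, over 2 libraries and 89 other genes with a mean of at least 1000 CPM. The nearest were Mir27b (2233 and 2285 CPM), Mir182 (4062 and 4151 CPM) and Mir484 (2076 and 2129 CPM). With only 2 points per gene, this ranks how alike the libraries were and nothing more.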

How the data were processed

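Per the readme of each library, the authors aligned reads to mm10 and made gene quantifications with annotation M4. The aligner and counter are not stated in the labels or files. The deposited values are raw read counts per microRNA gene in 3 columns, read from their totals as without regard to strand, on the annotated strand and on the opposite strand, with 4 summary lines that were kept out of all totals. CPM was computed here from the annotated-strand counts. Names and coordinates came from GENCODE M21 on GRCm38, to which 1894 of 1973 identifiers matched without their version. Hairpins were searched in the RefSeq table only, not in the genome. The loop of 1 member is not reported here. Depth was 5354530 and 6489390 counts.

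Named were all members, tabulated microRNA genes in the same run (gaps up to 10000 bp, or 60000 bp for Mirlet7a-2 and Mirlet7c-1), seed relatives, a fixed list of genes that act on Lin28a, genes next in level, and the 3 nearest in replicate ratio. Members and lists were chosen with earlier results of these data known. The 1.2-fold rule, the motif search and the opposite-strand loci were chosen after seeing the data. Alternatives were the unstranded counts, other totals, TMM scaling from edgeR 4.0.16, size factors from DESeq2 1.42.0, other minimum counts, members left out, a test within libraries and each library alone. Intervals of the replicate ratio were tested on simulated data with set ratios of 1, 2 and 4. They covered the set ratio for 92.4%, 94% and 92% of 157, 100 and 100 genes, each below their nominal level. Whether they cover the spread between the real libraries was not tested. Analyses used Python 3.11.15, numpy 2.4.6, pandas 2.3.3, scipy 1.17.1, matplotlib 3.10.9 and R 4.3.3.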

Additional observations from a re-analysis of the deposited data

Results flagged for a closer look

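Reads in the opposite-strand column, which the comparisons between members do not use, lie at 2 let-7 loci without a row of their own. At the Mirlet7e locus they had a mean of 6025 ± 51.9 CPM, and at the Mirlet7f-1 locus 242 ± 5.62 CPM (SD, n = 2 each), against a limit of 0.560 CPM for a count of 0 in replicate 1. Gm25927, the gene tabulated over Mirlet7e, ranked 3 among all genes by such reads and held 19.97% of them in replicate 1 and 20.5% in replicate 2. Whether these reads are mature let-7e and let-7f was not tested.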

How the results depend on the processing

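The family's share of 17.2% ± 0.277 (SD, n = 2) depended on its denominator and membership. It was 16.75% with counts taken without regard to strand, 8.18% of all reads, 18.7% with Mir143, the highest gene outside the family, left out of the total, 16.73% without the members that share a mature sequence and 17.9% with the opposite-strand reads at the Mirlet7e and Mirlet7f-1 loci. Each library alone gave 17.0% or 17.4%. The log2 ratio of replicate 2 over replicate 1 for the family, 0.033, was 0.040 with TMM scaling, 0.027 with DESeq2 size factors and 0.038 without the members that share a sequence. All 10 members stayed detected at minimums of 1 and 100 counts. The single-hairpin genes exceeded the shared-sequence genes in every alternative tried, with a log2 ratio of 4.93 or 5.11 in each library alone and 7.41 without Mirlet7f-2. Defining shared sequence by 20 nt between hairpins picked the same genes, so that alternative could not differ. None of the alternatives included the reads mapped to several places, so how the ratio depends on them was not tested. No log2 ratio changed sign in any alternative, while levels, shares and numbers of detected genes have no direction to turn. Of the 163 recomputed values, 141 were for single genes and neighbours. Of these, 118 stayed within the SD between replicates or the counting interval. With 2 libraries, the value of 1 library always lies within that SD of the mean. The 27 values without replicate 1 and the 27 without replicate 2 were therefore bound to stay within it. Of the 23 that moved further, 19 came from a changed denominator. Counting error was widest for the lowest member, Mirlet7c-1, whose ratio of replicate 2 over replicate 1 had an interval of 0.853 to 1.02.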
